A study of Mus musculus with 8 samples.

Results

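The 42 genes described here encode lysosomal hydrolases, their activator proteins, lysosomal membrane proteins, lysosomal transporters and the enzyme that tags hydrolases for delivery to lysosomes. They were taken from a list of gene symbols, without cathepsins and without subunits of the vacuolar ATPase, and all 42 were found among the 47937 genes of the count tables. The data are bulk RNA sequencing of bone marrow-derived dendritic cells (BMDCs), which are myeloid cells grown from mouse bone marrow with the growth factor GM-CSF. WT cells and cells deficient in the G-protein coupled receptor kinases GRK2, GRK3 and GRK6 (3xGrk-/-) were compared, either unstimulated (at rest) or after the bacterial cell wall component LPS. The 4 groups held 2 libraries each, 8 in all. The 3xGrk-/- cells came from mice that carried floxed alleles (Grk2 fl/fl, Grk6 fl/fl), a Grk3-/- deletion and the Cre line Vav-iCre, whose recombinase acts early in blood cell precursors, so that its action is not limited to dendritic cells. All mice were adults older than 8 weeks on a C57BL6/J background. Cells of all 4 groups had been kept for 8 days in 20 ng/ml GM-CSF, and the stimulated ones then received 20 ng/ml LPS for 1 day. It is not stated whether the 2 libraries of a group came from separate cultures or mice, and the methods describe technical replicates of the RNA isolation. The p-values then measure only the spread between these libraries, which may be technical.

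Lysosomes are acidic organelles in which hydrolases break down glycans, lipids, proteins and nucleic acids delivered by endocytosis, phagocytosis and autophagy. Most soluble hydrolases receive a mannose 6-phosphate tag in the Golgi and are carried to lysosomes by receptors that recognise it. Transcription factors of the MiT/TFE family, which include TFEB, TFE3, MITF and TFEC, bind E-box-containing elements in the promoters of many lysosomal genes. In dendritic cells the activity of these hydrolases is kept low relative to macrophages, and lysosomal content changes as the cells mature.

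The libraries held 4713305 to 6933358 reads counted on genes. Levels are given as CPM, read counts relative to library size, with library sizes scaled by TMM, a method that makes libraries of different composition comparable. Targeted transcripts were lower in 3xGrk-/- BMDCs but none was at 0. Grk2 stood at 320.2 and 321 CPM in WT and 151 and 146 CPM in 3xGrk-/- libraries at rest, Grk6 at 85.4 and 83.4 CPM and 36.9 and 37.0 CPM, and Grk3 at 338 and 341 CPM and 267 and 263 CPM. With LPS the difference in log2 was -1.89 for Grk2, -1.54 for Grk6 and -0.42 for Grk3. The counts cover all exons of a gene, so reads from outside a deleted part are included and these levels do not measure loss of the protein.

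Markers of other cell types differed between the groups together with the lysosomal genes. Of 13 macrophage markers, 8 were higher and 4 lower in unstimulated 3xGrk-/- BMDCs, and all 13 were higher with LPS. Their summed level was 1062 to 1089 CPM in unstimulated WT, 1761 to 1832 CPM in unstimulated 3xGrk-/-, 427 to 436 CPM in LPS-stimulated WT and 3195 to 3246 CPM in LPS-stimulated 3xGrk-/- libraries, so the ranges of the genotypes did not overlap. None of the 13 was at 0 in any library. Cd68, itself a late endosomal and lysosomal glycoprotein, stood at 53.5 and 57.7 CPM in WT and 249.8 and 224 CPM in 3xGrk-/- libraries at rest, and at 19.96 and 17.8 CPM against 298 and 301 CPM with LPS. The log2 differences with LPS were 2.48 for Adgre1, 3.15 for Csf1r and 1.70 for Mertk. At rest the log2 differences of the 13 macrophage markers ran from -1.94 to 4.75. Of these, 5 were higher and 3 lower by at least 1 (4.82% and 7.22% of all genes). Of the dendritic cell markers, 4 of 12 tested were higher and 7 lower without stimulation, and 2 of 10 were higher and 8 lower with LPS. Their summed level was lower in 3xGrk-/- libraries, with 10577 to 10613 CPM in WT and 5693 to 5768 CPM in 3xGrk-/- libraries at rest and 7719 to 8262 CPM and 6366 to 6523 CPM with LPS. Zbtb46 differed by -0.42 at rest and -0.40 with LPS, whereas Itgax (0.19 and 2.34) and Flt3 (0.95 and 1.35) were the 2 markers higher with LPS. Eosinophil markers were lower in 7 of 8 and 8 of 8 cases and neutrophil markers in 5 of 9 and 6 of 8. Of the mast cell and basophil markers tested, 3 of 5 were lower in each comparison (1 with DESeq2) and 1, Gata2, was higher at rest, with summed levels of 42.05 to 43.94 CPM in WT and 50.6 to 54.4 CPM in 3xGrk-/- libraries at rest and 42.6 to 45.6 CPM and 36.2 to 36.5 CPM with LPS. In addition, 2 of 3 stromal markers, Col1a1 and Col3a1, were higher with LPS at a summed level of at most 14.9 CPM, whereas summed lymphocyte markers stayed under 0.765 CPM and erythroid markers under 0.192 CPM in every library. The part of these markers in the lysosomal differences was not tested, and in bulk samples fewer cells of a type and less RNA per cell cannot be told apart.

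The promoters of lysosomal genes are known for E-boxes of the sequence CACGTG, the core of the site bound by MiT/TFE factors. A window from 250 bases before to 50 bases after the start of transcription was read from RefSeq (GRCm38.p6) for 36 of the 42 genes. Aga, Asah1, Galns, Hgsnat, Npc1 and Plbd2 had no entry. CACGTG, which reads the same on both strands, was present in 11 of the 36 promoters (30.6%), against 8.09% of 27025 genes. The longer TCACGTGA, which contains CACGTG, was found in 3 of them (8.33% against 1.12%), those of Cln3, Mcoln1 and Gla. Of 49 other lysosomal genes with a promoter entry, 16.3% held CACGTG and 14.3% TCACGTGA, the latter a higher share than among the members. A gene with several starts was counted if any of its windows held the motif. The 27025 genes were not limited to those expressed here. Among genes with a promoter entry that were tested in unstimulated cells, 1101 held CACGTG and 8040 did not. A match is a description of the letters, not a bound site. 5 promoters are printed from 5′ to 3′ with each CACGTG in capitals, for Mcoln2 and Gla, which had the highest log2 differences with LPS of all members, for Lamp1, whose promoter held most E-boxes, for Cln3, which also held the longer motif, and for Psap, the most abundant member, which has none. They lie at chr3:146149924-146150223 (plus strand) for Mcoln2, chrX:134600956-134601255 (minus strand) for Gla, chr8:13158911-13159210 (plus strand) for Lamp1, chr7:126583187-126583486 (minus strand, the downstream of its annotated starts) for Cln3, and chr10:60277378-60277677 (plus strand, the upstream of its annotated starts) for Psap.
Mcoln2: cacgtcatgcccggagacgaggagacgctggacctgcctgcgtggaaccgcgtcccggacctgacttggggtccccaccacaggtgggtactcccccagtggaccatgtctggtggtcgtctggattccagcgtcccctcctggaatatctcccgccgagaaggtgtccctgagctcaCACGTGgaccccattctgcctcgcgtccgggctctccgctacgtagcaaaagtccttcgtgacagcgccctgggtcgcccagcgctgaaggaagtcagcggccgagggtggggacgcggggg
Gla: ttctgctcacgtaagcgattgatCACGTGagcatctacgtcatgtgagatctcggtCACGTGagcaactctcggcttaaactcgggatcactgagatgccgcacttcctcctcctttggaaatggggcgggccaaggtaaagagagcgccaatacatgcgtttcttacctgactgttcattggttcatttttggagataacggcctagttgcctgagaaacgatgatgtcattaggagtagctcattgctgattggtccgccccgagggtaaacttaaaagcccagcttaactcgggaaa
Lamp1: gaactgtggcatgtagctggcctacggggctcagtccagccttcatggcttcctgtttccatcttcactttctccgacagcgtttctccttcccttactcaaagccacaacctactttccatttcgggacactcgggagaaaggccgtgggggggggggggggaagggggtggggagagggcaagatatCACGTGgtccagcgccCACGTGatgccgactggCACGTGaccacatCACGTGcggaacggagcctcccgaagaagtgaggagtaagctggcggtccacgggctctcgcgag
Cln3: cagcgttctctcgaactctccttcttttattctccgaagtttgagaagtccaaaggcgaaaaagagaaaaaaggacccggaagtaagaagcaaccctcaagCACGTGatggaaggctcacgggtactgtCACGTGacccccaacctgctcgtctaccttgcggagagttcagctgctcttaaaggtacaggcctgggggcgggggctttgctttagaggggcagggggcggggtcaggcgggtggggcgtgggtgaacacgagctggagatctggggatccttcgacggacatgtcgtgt
Psap: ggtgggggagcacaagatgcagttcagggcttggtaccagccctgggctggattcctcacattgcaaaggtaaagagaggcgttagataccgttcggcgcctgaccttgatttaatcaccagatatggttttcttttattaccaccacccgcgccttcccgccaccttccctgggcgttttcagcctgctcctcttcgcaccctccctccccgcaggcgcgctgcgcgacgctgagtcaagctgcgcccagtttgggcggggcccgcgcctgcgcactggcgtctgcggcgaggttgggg
The first base of the Mcoln2 motif lay at -72 relative to the start, those of Gla at -227 and -194, both within TCACGTGA, and those of Lamp1 at -61, -45, -28 and -15. The Cln3 motifs lay at -149 and -121. The other promoters with CACGTG were those of Mcoln1, Gaa, Sgsh, Naglu, Glb1, Arsa and Lgmn.

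To ask how much of the transcriptome the lysosomal genes made up, their levels were summed. The 42 genes together reached 10548 and 10545 CPM in unstimulated WT libraries and 11092 and 11027 CPM in unstimulated 3xGrk-/- libraries. With LPS the sums were 6789 and 6908 CPM in WT and 18248 and 18097 CPM in 3xGrk-/- libraries. The LPS-stimulated groups therefore stood on either side of the unstimulated ones, with a ratio of 2.65 between genotypes, against 1.05 without stimulation. The small unstimulated difference turned around when libraries were scaled by total reads alone (11710 CPM in WT and 11574 CPM in 3xGrk-/-), whereas the LPS difference held at 6550 CPM and 16354 CPM. Psap alone supplied 42.4 to 47.9% of the sum in the unstimulated libraries, 28.7 to 29.5% in LPS-stimulated WT and 48.8 to 48.9% in LPS-stimulated 3xGrk-/- libraries. Without Psap the means were 5497 ± 3.03 CPM in WT and 6353 ± 1.16 CPM in 3xGrk-/- without stimulation and 4855 ± 19.0 CPM and 9294 ± 41.8 CPM with LPS (SD, n = 2), ratios of 1.16 and 1.91. No test was made on these sums.

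**Figure D1:**
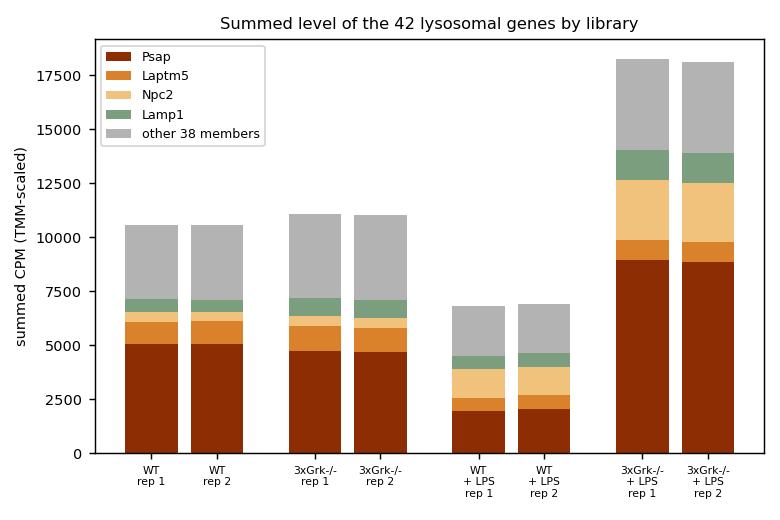
Summed level of the 42 lysosomal genes in each of the 8 libraries, in TMM-scaled CPM, stacked by the most abundant genes (Psap, Laptm5, Npc2, Lamp1) and the other 38. The bars of LPS-stimulated 3xGrk-/- libraries (18248 and 18097 CPM) stand above all others and those of LPS-stimulated WT (6789 and 6908 CPM) below all others.

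The genotypes were then compared gene by gene with the quasi-likelihood test of edgeR, p-values being adjusted by Benjamini-Hochberg over every gene in the fit, and a gene is called where the adjusted p was under 0.05. In unstimulated BMDCs 33 of the 42 genes were called, 26 higher and 7 lower in 3xGrk-/-, whereas 44.7% of 12000 genes tested were called, 22.1% higher and 22.7% lower. The median log2 fold change of the 42 genes was 0.26, against -0.00168 over all genes. Only Hgsnat and Gla were higher by a log2 of at least 1 (background 4.82%), and only Arsb was lower by that much (background 7.22%). With LPS 37 genes were called, 33 higher and 4 lower, against 48.6% of 11830 genes tested, 24.7% higher and 24.0% lower. The median was 0.82 over the 42 genes, with -0.01 over all genes, and 19 genes were higher by at least 1 on the log2 scale (background 10.3%) and 3 lower (background 6.43%). The WT and 3xGrk-/- libraries did not overlap for 36 of the 42 genes without stimulation (background 69.1%) and for 41 with LPS (background 72.6%). Across the unstimulated and LPS comparisons, 23 genes were higher in each (12.4% of 11350 genes tested in both), 3 were lower in each (10.5%), 4 were lower without stimulation and higher with LPS (2.39%), none was higher and then lower (3.12%), and Ctns and Slc17a5 were called in neither (36.0%). The DESeq2 package called 21 genes without stimulation (17 higher and 4 lower, background 25.7%) and 34 with LPS (30 higher and 4 lower, background 33.3%). By DESeq2, 15 genes were higher in each comparison (background 8.15%), 2 lower in each (5.46%), and only Psap and Gm2a lower at rest and higher with LPS (1.09%). The same 2 remained in that last class without unstimulated 3xGrk-/- replicate 1. By total reads alone, in the fit of all 8 libraries or without LPS-stimulated WT replicate 1, Glb1 was higher at rest and lower with LPS. At a biological coefficient of variation of 0.4 for every gene, in place of the fitted 0.0306 and 0.0573, no gene was called without stimulation (background 3.73%) and 5 with LPS (background 6.61%), namely Psap, Mcoln2, Lipa, Gla and Hgsnat.

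**Figure D2:**
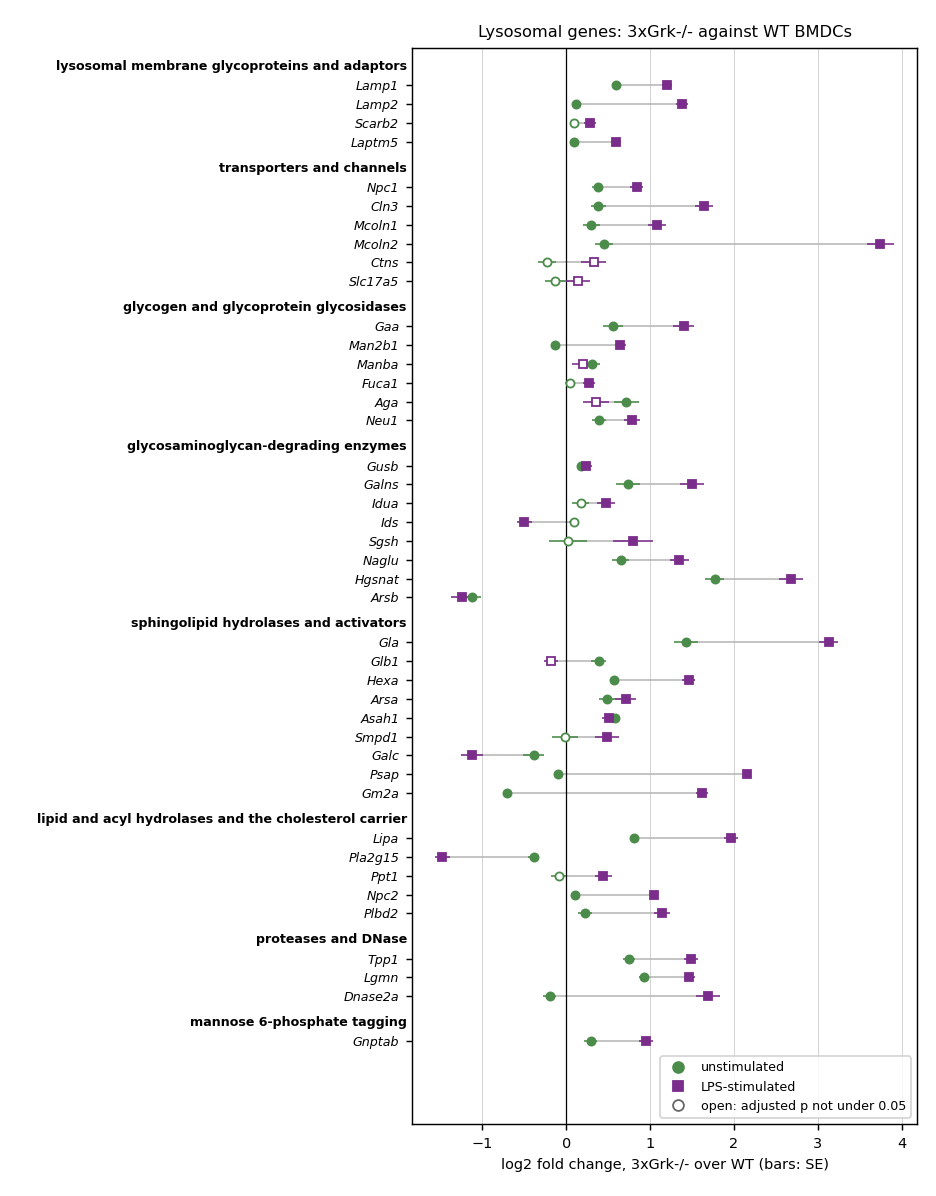
Log2 fold change of 3xGrk-/- over WT BMDCs for each of the 42 genes, grouped by role, with the SE of the fit as bars. Green circles are unstimulated and purple squares LPS-stimulated cells, open symbols had an adjusted p not under 0.05, and Mcoln2 (3.75) and Gla (3.13) lie farthest to the right with LPS.

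Among the membrane glycoproteins and adaptors, 3 of 4 genes were higher in unstimulated 3xGrk-/- BMDCs (22.1% of all genes) and all 4 with LPS (24.7%). Lamp1 (chr8:13159161-13175338, GRCm38), which encodes a major glycoprotein of the lysosomal membrane, stood at 582 and 557 CPM in WT and 873 and 842 CPM in 3xGrk-/- libraries at rest, and at 606 and 629.5 CPM against 1433 and 1409 CPM with LPS. Both 3xGrk-/- groups lay above both WT groups, by 0.59 ± 0.04 SE, edgeR adjusted p = 3.86e-57 on the log2 scale without stimulation and by 1.20 ± 0.05 SE, edgeR adjusted p = 9.22e-14 with LPS. Lamp2, its close relative with a role in chaperone-mediated autophagy, was at 200.4 and 209.7 CPM in WT and 216 and 229 CPM in 3xGrk-/- libraries without stimulation, and at 261 and 214 CPM and 603 and 631 CPM with LPS. Only the LPS-stimulated 3xGrk-/- libraries stood far above the others, with a log2 difference of 1.38 ± 0.08 SE, edgeR adjusted p = 2.52e-12, while the unstimulated difference was 0.11 ± 0.05 SE, edgeR adjusted p = 0.0412. Laptm5, a lysosomal membrane protein of haematopoietic cells, differed by 0.10 ± 0.03 SE without stimulation and 0.60 ± 0.06 SE with LPS. Scarb2, which carries glucocerebrosidase to lysosomes, differed by 0.10 ± 0.06 SE (not called) and 0.28 ± 0.07 SE. The unstimulated call of Lamp2 was lost without WT replicate 1 (0.09), WT replicate 2 (0.15) or 3xGrk-/- replicate 2 (0.07), and that of Laptm5 without WT replicate 1 (0.09) or 3xGrk-/- replicate 1 (0.08), all as log2 fold changes. Both were also lost with DESeq2 (adjusted p = 0.29 for Lamp2 and 0.0638 for Laptm5) and by total reads alone (0.029 and 0.012), which left Lamp1 as the only gene of the group called at rest. The Lamp2 call was lost as well where genes needed at least 10 counts in every library (0.10). In the fit of all 8 libraries neither gene was called higher in both stimulations.

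Of the transporters and channels, 4 of 6 were higher in 3xGrk-/- BMDCs in each stimulation (22.1% of all genes at rest and 24.7% with LPS). Mcoln2 (chr3:146149833-146195513) encodes TRPML2, a cation channel of endosomes and lysosomes. Its level was 32.3 and 25.6 CPM in WT and 39.5 and 38.5 CPM in 3xGrk-/- libraries at rest, but 3.45 and 3.87 CPM in LPS-stimulated WT and 49.4 and 49.8 CPM in LPS-stimulated 3xGrk-/- libraries. The LPS-stimulated WT libraries were thus far below all others, and the log2 difference between genotypes was 3.75 ± 0.17 SE, edgeR adjusted p = 5.3e-14 with LPS and 0.45 ± 0.11 SE, edgeR adjusted p = 0.00013 without. Its relative Mcoln1, the calcium release channel TRPML1, was measured at 36.3 and 36.7 CPM in WT and 43.2 and 46.9 CPM in 3xGrk-/- libraries without stimulation, and at 25.4 and 26.3 CPM and 54.7 and 55.1 CPM with LPS. Genotypes did not overlap in either stimulation (log2 0.30 ± 0.10 SE and 1.08 ± 0.11 SE). Cln3, the gene of a membrane protein lost in juvenile Batten disease, had 36.9 and 39.5 CPM in WT and 50.3 and 49.8 CPM in 3xGrk-/- libraries at rest, and 23.4 and 25.4 CPM and 80.0 and 72.5 CPM with LPS. Its highest values were those of LPS-stimulated 3xGrk-/- and its lowest those of LPS-stimulated WT libraries, a log2 difference of 1.64 ± 0.11 SE, edgeR adjusted p = 4.3e-11. Npc1, which exports cholesterol from lysosomes, was higher by 0.37 ± 0.06 SE and 0.84 ± 0.08 SE. The cystine exporter Ctns was called in neither stimulation, with 36.5 and 34.3 CPM in WT against 27.7 and 32.8 CPM in 3xGrk-/- libraries at rest and 14.7 and 16.6 CPM against 19.5 and 19.9 CPM with LPS. The sialic acid exporter Slc17a5 likewise showed 23.9 and 27.7 CPM against 25.6 and 21.7 CPM at rest and 20.7 and 18.6 CPM against 20.7 and 22.2 CPM with LPS. Log2 differences were -0.23 ± 0.11 SE and 0.33 ± 0.15 SE for Ctns and -0.13 ± 0.12 SE and 0.14 ± 0.14 SE for Slc17a5. The unstimulated calls of Mcoln1 and Mcoln2 were lost without 3xGrk-/- replicate 2 (log2 0.24) and WT replicate 2 (log2 0.27), respectively, and both with DESeq2 (adjusted p = 0.164 and 0.0545). By total reads alone Mcoln1 was not called at rest (0.21) and Ctns was called lower (-0.31).

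The 6 glycosidases of glycogen and glycoproteins were split. In unstimulated 3xGrk-/- BMDCs 4 were higher and 1 lower (22.1% and 22.7% of all genes), and with LPS 4 were higher (24.7%). Gaa, the acid glucosidase that degrades glycogen, stood at 25.2 and 21.7 CPM in WT and 34.4 and 33.9 CPM in 3xGrk-/- libraries without stimulation, and at 19.4 and 17.0 CPM and 44.7 and 51.1 CPM with LPS. No value of the 3xGrk-/- groups fell into the WT range, and the log2 difference was 0.56 ± 0.12 SE at rest and 1.40 ± 0.12 SE, edgeR adjusted p = 5.92e-09 with LPS. Man2b1, the lysosomal alpha-mannosidase, was among the 4 genes called in opposite directions, with 357 and 356 CPM in WT and 322 and 329 CPM in 3xGrk-/- libraries at rest and 164 and 174 CPM and 270.1 and 258 CPM with LPS. The 3xGrk-/- libraries were just below WT at rest (-0.13 ± 0.04 SE, edgeR adjusted p = 0.00579) and well above with LPS (0.64 ± 0.06 SE, edgeR adjusted p = 3.93e-08). The sialidase gene Neu1 was higher by 0.39 ± 0.08 SE and 0.78 ± 0.10 SE. The beta-mannosidase gene Manba (0.31 ± 0.09 SE) and Aga (0.72 ± 0.15 SE), which cleaves the bond between asparagine and glycans, were called at rest but not with LPS (0.20 ± 0.13 SE and 0.36 ± 0.16 SE). The fucosidase gene Fuca1 was called with LPS (0.27 ± 0.07 SE) but not at rest (0.04 ± 0.05 SE). Single libraries decided the unstimulated calls of Man2b1 (log2 -0.11 without 3xGrk-/- replicate 1) and Manba (0.17 without WT replicate 1), and the LPS call of Fuca1 (0.27 without 3xGrk-/- replicate 2). With DESeq2 neither Man2b1 (adjusted p = 0.111) nor Manba (0.104) was called at rest.

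Of the 8 enzymes that degrade glycosaminoglycans, 4 were higher and 1 lower in unstimulated 3xGrk-/- BMDCs (22.1% and 22.7% of all genes). With LPS 6 were higher and 2 lower (24.7% and 24.0%). Hgsnat (chr8:25944453-25976753), the membrane-bound acetyltransferase of heparan sulfate breakdown, had 14.7 and 15.6 CPM in WT and 53.1 and 50.4 CPM in 3xGrk-/- libraries at rest, and 7.44 and 8.35 CPM against 47.6 and 54.0 CPM with LPS. It was the member with the highest log2 difference at rest (1.77 ± 0.12 SE, edgeR adjusted p = 8.18e-49), and its difference with LPS was 2.68 ± 0.14 SE, edgeR adjusted p = 1.64e-12. Naglu, the glucosaminidase acting on the same polymer, stood at 33.1 and 27.6 CPM in WT and 44.6 and 49.8 CPM in 3xGrk-/- libraries at rest and at 21.0 and 25.2 CPM and 57.8 and 60.5 CPM with LPS. Genotypes were separate in both stimulations (log2 0.65 ± 0.10 SE and 1.35 ± 0.11 SE). The sulfatase gene Galns was measured at 13.0 and 13.7 CPM in WT and 20.5 and 24.5 CPM in 3xGrk-/- libraries without LPS, and at 14.0 and 11.8 CPM and 38.7 and 33.9 CPM with it, again without overlap (log2 0.74 ± 0.15 SE and 1.50 ± 0.14 SE). Arsb, the sulfatase acting on dermatan and chondroitin sulfate, ran the other way in both stimulations. Its values were 45.7 and 46.7 CPM in WT and 20.05 and 22.4 CPM in 3xGrk-/- libraries at rest, and 34.5 and 37.8 CPM and 15.1 and 15.4 CPM with LPS. The 3xGrk-/- libraries were below every WT library, with log2 differences of -1.13 ± 0.11 SE, edgeR adjusted p = 1.69e-22 at rest and -1.25 ± 0.13 SE, edgeR adjusted p = 7.87e-08 with LPS. The iduronate sulfatase gene Ids was lower with LPS (-0.50 ± 0.08 SE) and not called at rest (0.09 ± 0.06 SE). The beta-glucuronidase gene Gusb was higher in both (0.18 ± 0.05 SE and 0.23 ± 0.07 SE), and the iduronidase gene Idua (0.48 ± 0.11 SE) and the sulfamidase gene Sgsh (0.80 ± 0.23 SE) with LPS alone by the threshold, with 0.17 ± 0.10 SE and 0.03 ± 0.23 SE at rest. The Gusb call at rest was lost without WT replicate 2 (0.14) or 3xGrk-/- replicate 2 (0.13) and its LPS call without 3xGrk-/- replicate 1 (0.25) or replicate 2 (0.24), and the LPS call of Sgsh without 3xGrk-/- replicate 1 (0.64). DESeq2 called neither Gusb (adjusted p = 0.0572 at rest and 0.0864 with LPS) nor Sgsh with LPS (0.0998), and by total reads alone Gusb came to 0.095 and 0.15 and was not called.

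The 9 sphingolipid hydrolases and activators held the most abundant member. At rest 5 were higher and 3 lower in 3xGrk-/- BMDCs (22.1% and 22.7% of all genes), and with LPS 7 were higher and 1 lower (24.7% and 24.0%). Psap (chr10:60277627-60302597) encodes prosaposin, the precursor of the saposins that present sphingolipids to their hydrolases. It stood at 5049 and 5049 CPM in WT and 4739.6 and 4673 CPM in 3xGrk-/- libraries at rest, and at 1947 and 2039 CPM in WT and 8924 and 8832 CPM in 3xGrk-/- libraries with LPS. The unstimulated groups were close, with a log2 difference of -0.10 ± 0.02 SE, edgeR adjusted p = 6.56e-05, whereas the LPS-stimulated groups were the lowest and the highest of all, 4.45-fold apart (2.15 ± 0.05 SE, edgeR adjusted p = 4.12e-19). Gm2a, the activator that presents GM2 ganglioside to hexosaminidase, was at 508 and 542 CPM in WT and 325 and 319.9 CPM in 3xGrk-/- libraries at rest, and at 96.7 and 89.9 CPM and 284 and 288 CPM with LPS. It was lower in 3xGrk-/- at rest (-0.71 ± 0.04 SE, edgeR adjusted p = 9.88e-65) and higher with LPS (1.62 ± 0.07 SE, edgeR adjusted p = 4e-14), with no overlap in either. Hexa, the alpha subunit of hexosaminidase, did not share the opposite directions of its activator. It was at 178 and 188 CPM in WT and 271 and 277 CPM in 3xGrk-/- libraries at rest, and at 75.1 and 85.2 CPM and 223 and 219 CPM with LPS (log2 0.57 ± 0.05 SE and 1.46 ± 0.08 SE).

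Gla (chrX:134588149-134601125), the alpha-galactosidase lost in Fabry disease, was measured at 15.1 and 9.95 CPM in WT and 37.2 and 27.6 CPM in 3xGrk-/- libraries at rest. With LPS it stood at 13.1 and 13.5 CPM in WT and 124 and 109 CPM in 3xGrk-/- libraries. The 3 groups other than LPS-stimulated 3xGrk-/- all lay far below it, and the log2 difference was 1.43 ± 0.14 SE, edgeR adjusted p = 8.05e-24 at rest and 3.13 ± 0.12 SE, edgeR adjusted p = 2.47e-15 with LPS. Galc, which degrades galactosylceramide, was lower in 3xGrk-/- BMDCs in both stimulations, with 30.0 and 30.8 CPM in WT against 22.7 and 23.8 CPM at rest and 39.7 and 39.1 CPM against 16.5 and 19.5 CPM with LPS. The gap was wider with LPS (-1.13 ± 0.13 SE, edgeR adjusted p = 1.96e-07) than at rest (-0.39 ± 0.12 SE, edgeR adjusted p = 0.00379). The arylsulfatase gene Arsa was higher by 0.49 ± 0.10 SE and 0.71 ± 0.13 SE and the acid ceramidase gene Asah1 by 0.58 ± 0.05 SE and 0.51 ± 0.08 SE. The acid sphingomyelinase gene Smpd1 was higher with LPS (0.49 ± 0.14 SE), with -0.01 ± 0.16 SE at rest. The beta-galactosidase gene Glb1 was higher at rest (0.39 ± 0.09 SE) and not called with LPS (-0.18 ± 0.08 SE). The unstimulated Galc call was lost without 3xGrk-/- replicate 1 (log2 -0.35) and with DESeq2 (adjusted p = 0.143), as was the LPS call of Smpd1 with DESeq2 (0.106). By total reads alone Glb1 was called lower with LPS (-0.27).

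**Figure D3:**
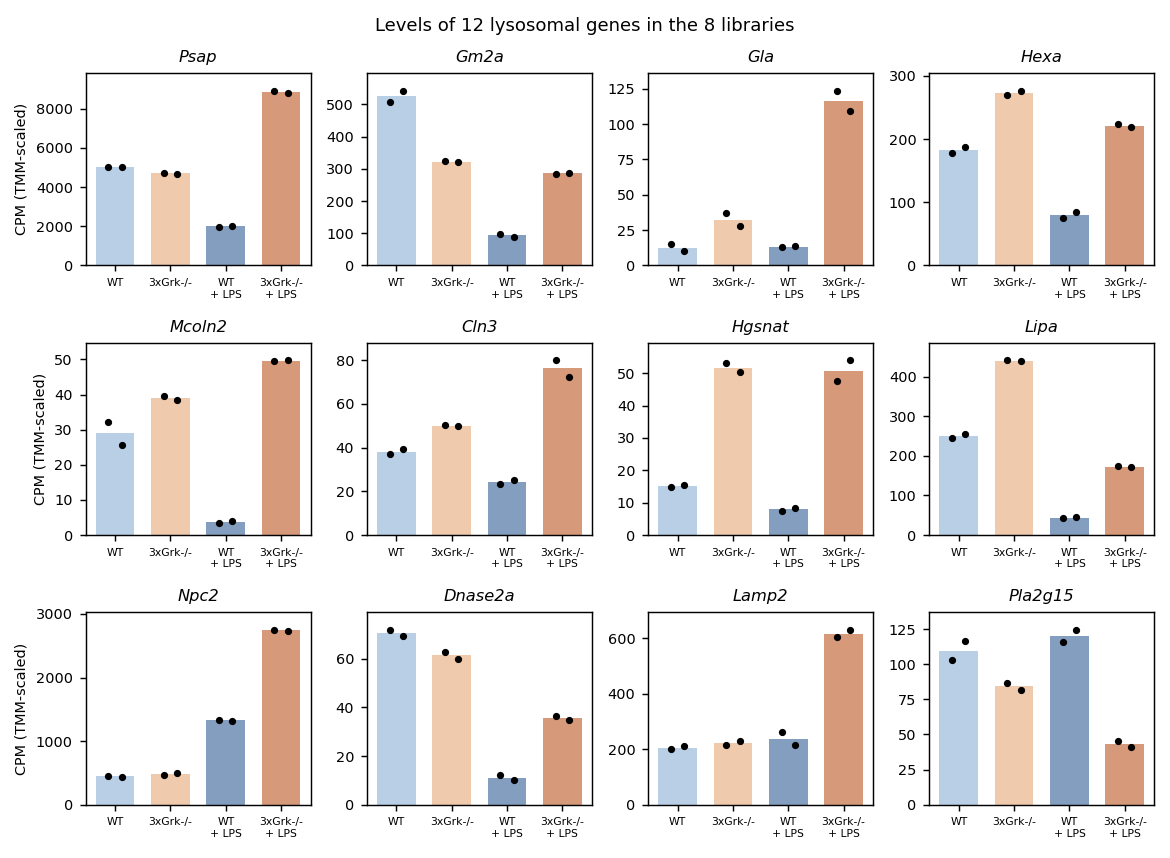
Levels of 12 of the genes in TMM-scaled CPM on linear axes that start at 0. Bars are means of a group, dots its 2 libraries; Psap goes from 1947 and 2039 CPM in LPS-stimulated WT to 8924 and 8832 CPM in LPS-stimulated 3xGrk-/- libraries, and Pla2g15 runs the other way.

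Of the 5 lipid and acyl hydrolases, counted together with the cholesterol carrier Npc2, 3 were higher and 1 lower at rest (22.1% and 22.7% of all genes). With LPS 4 were higher and 1 lower (24.7% and 24.0%). Lipa, the acid lipase that frees cholesterol from its esters, stood at 246 and 256 CPM in WT and 442 and 439.9 CPM in 3xGrk-/- libraries at rest, and at 42.1 and 46.3 CPM and 176 and 171 CPM with LPS. Each 3xGrk-/- group was above the WT group of the same stimulation, by 0.81 ± 0.04 SE, edgeR adjusted p = 1.6e-77 and 1.97 ± 0.08 SE, edgeR adjusted p = 1.9e-14, although the LPS-stimulated 3xGrk-/- libraries were below the unstimulated WT libraries. Npc2, the soluble protein that hands cholesterol to NPC1, was at 450.3 and 437 CPM in WT and 459 and 498 CPM in 3xGrk-/- libraries at rest, and at 1334 and 1317 CPM and 2752 and 2730.1 CPM with LPS. It was high in both LPS-stimulated groups, with a genotype difference of 1.05 ± 0.05 SE, edgeR adjusted p = 2.22e-13, against 0.11 ± 0.04 SE, edgeR adjusted p = 0.0168 at rest. Pla2g15, the lysosomal phospholipase A2, had 103 and 117 CPM in WT and 87.1 and 82.0 CPM in 3xGrk-/- libraries at rest, and 116 and 125 CPM and 45.1 and 41.3 CPM with LPS. It was lower in 3xGrk-/-, with log2 differences of -0.39 ± 0.07 SE, edgeR adjusted p = 2.57e-08 at rest and -1.48 ± 0.09 SE, edgeR adjusted p = 1.04e-11 with LPS, the latter the lowest value of all members. Plbd2, a lysosomal protein named for its likeness to phospholipase B, was at 53.9 and 51.9 CPM in WT and 61.2 and 61.8 CPM in 3xGrk-/- libraries at rest, and at 44.3 and 52.8 CPM and 111 and 104 CPM with LPS. The genotypes were separate in both (log2 0.22 ± 0.08 SE and 1.14 ± 0.09 SE). The thioesterase gene Ppt1 was higher with LPS (0.44 ± 0.10 SE), with -0.09 ± 0.09 SE at rest. At rest the call of Npc2 was lost without WT replicate 2 (0.08) or 3xGrk-/- replicate 2 (0.05), and that of Plbd2 without WT replicate 2 (0.19), 3xGrk-/- replicate 1 (0.23) or 3xGrk-/- replicate 2 (0.22). Both were lost with DESeq2 (adjusted p = 0.171 and 0.255) and by total reads alone (0.024 and 0.14), so that Lipa alone was called higher at rest there.

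The 3 remaining hydrolases and the tagging enzyme completed the list. Tpp1, a peptidase that removes tripeptides, was at 66.5 and 66.9 CPM in WT and 115 and 109 CPM in 3xGrk-/- libraries at rest, and at 50.4 and 44.6 CPM and 132 and 134 CPM with LPS. Lgmn, the asparaginyl endopeptidase that processes cathepsins and antigens, was at 80.4 and 79.3 CPM in WT and 156 and 148 CPM in 3xGrk-/- libraries at rest, and at 125 and 136 CPM and 363 and 359 CPM with LPS. Both were higher in 3xGrk-/- without overlap, Tpp1 by 0.75 ± 0.07 SE and 1.49 ± 0.09 SE and Lgmn by 0.93 ± 0.06 SE and 1.47 ± 0.06 SE. Dnase2a, which digests DNA of engulfed cells, was at 72.0 and 69.7 CPM in WT and 63.0 and 60.1 CPM in 3xGrk-/- libraries at rest, and at 12.2 and 10.1 CPM and 36.5 and 34.9 CPM with LPS. It was slightly lower in 3xGrk-/- at rest (-0.20 ± 0.08 SE, edgeR adjusted p = 0.0285) and higher with LPS (1.69 ± 0.15 SE, edgeR adjusted p = 3.52e-09). The unstimulated call was lost without WT replicate 1 (log2 -0.18), WT replicate 2 (-0.23), 3xGrk-/- replicate 1 (-0.23) or 3xGrk-/- replicate 2 (-0.16), and with DESeq2 (adjusted p = 0.285) or with no filter (-0.18). Gnptab, the phosphotransferase subunit that starts the mannose 6-phosphate tag, was higher by 0.29 ± 0.08 SE and 0.95 ± 0.08 SE, the former not called by DESeq2 (adjusted p = 0.0809).

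To ask whether the genotype effect differed between the stimulations, the difference of differences was tested over all 8 libraries. It was called for 31 of the 42 genes, 27 upward and 4 downward, against 32.5% of 12541 genes tested (16.5% upward and 16.0% downward), with a median of 0.58 on the log2 scale. DESeq2 called it for 27 genes (background 21.1%), without Ctns, Fuca1, Neu1 and Galns. The largest were those of Mcoln2 (3.30 ± 0.22 SE, edgeR adjusted p = 9.97e-13), Gm2a (2.32 ± 0.08 SE, edgeR adjusted p = 9.83e-19), Psap (2.26 ± 0.05 SE, edgeR adjusted p = 4.35e-23), Dnase2a (1.89 ± 0.16 SE, edgeR adjusted p = 1.76e-10) and Gla (1.70 ± 0.23 SE, edgeR adjusted p = 1.2e-06). Pla2g15 (-1.10 ± 0.12 SE, edgeR adjusted p = 1.11e-08), Galc, Ids and Glb1 were the 4 downward ones. Of the members called in opposite directions, Man2b1 had 0.77 ± 0.08 SE, edgeR adjusted p = 4.11e-09. For Arsb (-0.12 ± 0.17 SE, adjusted p = 0.648 by edgeR) and Asah1 (-0.07 ± 0.10 SE, adjusted p = 0.656 by edgeR) no difference between the stimulations was detected at this spread.

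The response to LPS within each genotype showed where these differences lay. In WT BMDCs 30 of the 42 genes were called, 7 higher and 23 lower with LPS, against 60.3% of all genes tested (29.5% higher and 30.8% lower), and the median log2 change was -0.35. In 3xGrk-/- BMDCs 36 were called, 21 higher and 15 lower, against 55.4% (28.0% higher and 27.4% lower), with a median of 0.27. Scaling by total reads alone moved the median of all genes by -0.21 in WT and -0.22 in 3xGrk-/- BMDCs on the log2 scale, and the calls of members to 4 higher and 27 lower in WT and 16 higher and 18 lower in 3xGrk-/- BMDCs. At that scaling 7863 of 12541 genes tested were called in WT and 7445 in 3xGrk-/- BMDCs. Cln3, Mcoln1, Mcoln2, Gaa, Naglu, Psap and Tpp1 were lower with LPS in WT and higher with LPS in 3xGrk-/- BMDCs, 7 of 42 genes against 2.09% of all genes tested. With DESeq2, which called 24 members in WT (background 46.7%) and 32 in 3xGrk-/- BMDCs (background 41.1%), these were 3 genes, Cln3, Psap and Tpp1 (background 1.17%). Psap fell by 1.34 in WT and rose by 0.92 ± 0.03 SE, edgeR adjusted p = 6.36e-19 in 3xGrk-/- BMDCs. The change of Mcoln2 was -2.95 ± 0.19 SE, edgeR adjusted p = 6.61e-14 in WT and 0.35 ± 0.10 SE, edgeR adjusted p = 0.00568 in 3xGrk-/- BMDCs. Gm2a, Dnase2a and Lipa fell in both genotypes, with log2 changes of -2.50, -2.68 and -2.50 in WT and of -0.17, -0.79 and -1.35 in 3xGrk-/- BMDCs. Npc2 and Lgmn rose in both, Npc2 by 1.58 ± 0.05 SE in WT and 2.52 ± 0.05 SE in 3xGrk-/-, and Lgmn by 0.71 ± 0.07 SE and 1.25 ± 0.06 SE. Gla was called in 3xGrk-/- (1.83 ± 0.11 SE, edgeR adjusted p = 4.95e-14) and not in WT (0.12 ± 0.20 SE, edgeR adjusted p = 0.61). Hgsnat fell in WT (-0.94 ± 0.17 SE, edgeR adjusted p = 3.44e-05) and had -0.02 ± 0.09 SE, edgeR adjusted p = 0.846 in 3xGrk-/- BMDCs.

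Several of these responses rested on the tool, the scaling or single libraries. DESeq2 did not call Lamp1 (adjusted p = 0.0654), Gaa (0.111) and Naglu (0.0613) in WT, nor Mcoln1 (0.093), Mcoln2 (0.0829) and Naglu (0.0678) in 3xGrk-/- BMDCs. By total reads alone, Lamp1 and Lamp2 turned from 0.12 and 0.21 to -0.10 and -0.01 in WT, and the rises of Mcoln1, Mcoln2, Naglu and Tpp1 in 3xGrk-/- BMDCs came to 0.07, 0.13, 0.11 and 0.03 and were no longer called, while Hgsnat was called lower there (-0.24). The WT call of Lamp1 was also lost without unstimulated replicate 2 (0.09) or LPS replicate 2 (0.09), with no filter (0.10) and with at least 10 counts in every library (0.08), and that of Lamp2 without unstimulated replicate 1 (0.17) or LPS replicate 1 (0.07). In WT the Gaa call was lost without unstimulated replicate 1 (-0.27) or LPS replicate 2 (-0.25), and the Naglu call without unstimulated replicate 1 (-0.25) or LPS replicate 1 (-0.25). In 3xGrk-/- BMDCs the Mcoln1 (0.23) and Naglu (0.25) calls were lost without unstimulated replicate 1, the Tpp1 call without unstimulated replicate 2 (0.21), and the Gm2a call without unstimulated replicate 1 or LPS replicate 1 (-0.16 each).

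**Figure D4:**
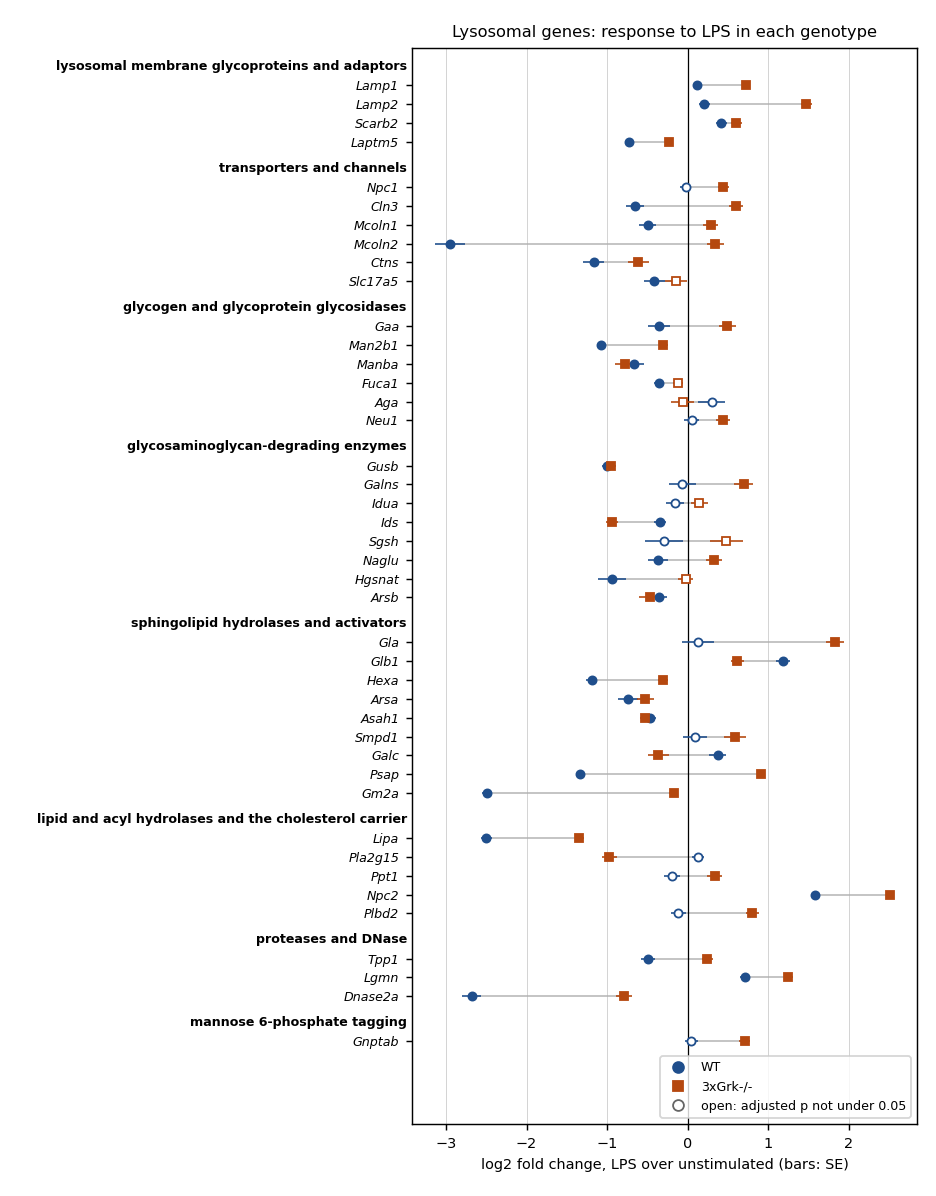
Log2 fold change of LPS-stimulated over unstimulated BMDCs for the 42 genes in WT (blue circles) and 3xGrk-/- (orange squares), with the SE as bars and open symbols where the adjusted p was not under 0.05. Psap moves from -1.34 in WT to 0.92 in 3xGrk-/- and Mcoln2 from -2.95 to 0.35.

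The promoters printed above were set beside the genotype differences. Of the 11 members with CACGTG, 10 were higher in 3xGrk-/- without stimulation (median log2 difference 0.49) and 10 with LPS (median 1.35), and none was lower. Of the 25 members whose promoter held no CACGTG, 10 were higher and 7 lower without stimulation (median 0.09), and 18 were higher and 4 lower with LPS (median 0.49). By DESeq2 the counts at rest were 8 higher of the 11, and 4 higher and 4 lower of the 25, and with LPS 9 of the 11, and 16 higher and 4 lower of the 25. Over all genes DESeq2 had 14.4% of those with and 13.3% of those without CACGTG higher at rest, and 20.4% and 17.8% with LPS. It had 11.7% and 12.9% of them lower at rest, and 13.4% and 16.2% with LPS. The 4 of 25 members lower in each stimulation were therefore close to the share of all genes. By total reads alone 1 of the 11, Glb1, was lower with LPS. Over all tested genes with a promoter, 26.9% of those with CACGTG and 24.9% of those without were higher with LPS, and 23.7% and 22.5% without stimulation. The shares lower were 22.0% and 23.9% with LPS and 21.0% and 22.6% without stimulation, so the 7 of 25 members lower at rest were close to the share of all genes. Psap, Lipa, Gm2a and Dnase2a, all higher with LPS, are among the members without the motif, and Glb1, with CACGTG, was not called with LPS. These counts are a description and carry no test.

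**Figure D5:**
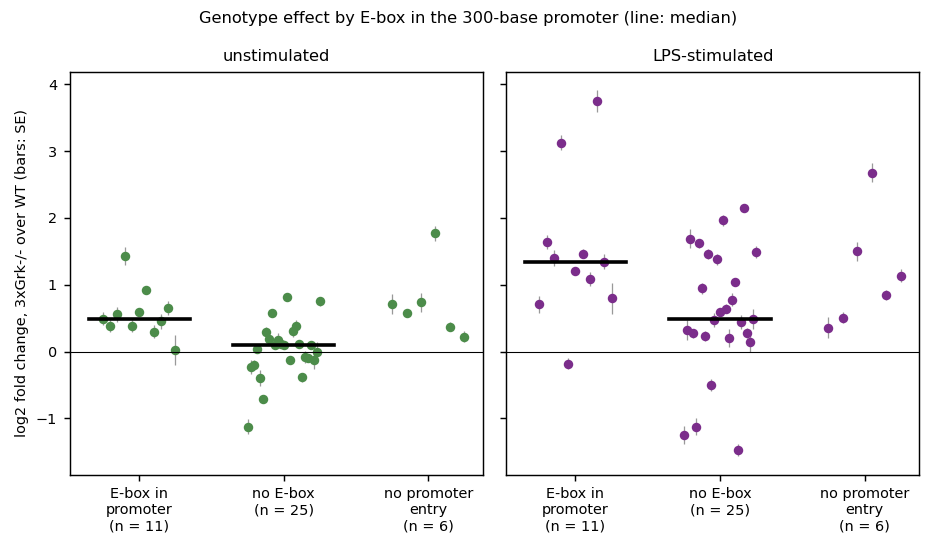
Log2 fold change of 3xGrk-/- over WT for members with the E-box in the promoter window, without it, and with no promoter entry (dots, with the SE as bars), unstimulated and LPS-stimulated. Lines are medians, 0.49 against 0.09 without stimulation and 1.35 against 0.49 with LPS.

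Further lysosomal genes outside the list of 42 were counted for context, 63 in all with their sorting receptors and the MiT/TFE factors. At rest 33 of 58 tested were higher and 10 lower (median 0.26), against 22.1% and 22.7% of all genes, and with LPS 51 of 59 were higher and 1 lower (median 0.78), against 24.7% and 24.0%. DESeq2, which called 25.7% of all genes at rest and 33.3% with LPS, called 23 higher and 9 lower at rest and 44 higher and 1 lower with LPS. At rest the highest differences were those of Slc11a1, a metal transporter of phagosomes (2.50 ± 0.10 SE), the lysosomal ATPase Atp13a2 (2.02 ± 0.07 SE) and the acid phosphatase Acp5 (1.95 ± 0.15 SE), while genes lower in 3xGrk-/- BMDCs included Fuca2 (-0.66 ± 0.08 SE) and Laptm4b (-0.63 ± 0.14 SE). With LPS the highest were Cln8 (3.25 ± 0.17 SE), which helps hydrolases leave the endoplasmic reticulum, Tfec (2.93 ± 0.17 SE) and Slc11a1 (2.87 ± 0.09 SE). The sorting receptor Sort1 was lower (-0.56 ± 0.13 SE), and the smallest rises called were those of Sidt2 (0.20 ± 0.06 SE) and Scpep1 (0.28 ± 0.07 SE). Of the MiT/TFE factors, Mitf stood at 23.9 and 21.3 CPM in WT and 62.5 and 63.2 CPM in 3xGrk-/- libraries at rest and at 11.1 and 9.59 CPM and 40.0 and 42.3 CPM with LPS. Tfec followed the same order, with 19.5 and 18.2 CPM and 43.1 and 46.5 CPM at rest and 4.35 and 4.95 CPM and 37.6 and 34.2 CPM with LPS. Tfe3 was higher by 0.26 ± 0.07 SE and 0.43 ± 0.09 SE, and Tfeb was called with LPS (0.53 ± 0.20 SE) and not at rest (-0.08 ± 0.12 SE). With DESeq2 the LPS calls of Tfeb (adjusted p = 0.227) and Sidt2 (0.0593) were lost, as they were by total reads alone (0.44 and 0.11) and without either 3xGrk-/- library, and that of Tfeb also without WT replicate 1 (0.46). The LPS call of Scpep1 was lost without 3xGrk-/- replicate 1 (0.24).

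Levels of different genes were compared per length, as RPKM, the CPM divided by the exon length in kilobases. Psap was the highest of the 42 genes in all 4 groups, at a mean of 1840.0 RPKM in unstimulated WT, 1715 in unstimulated 3xGrk-/-, 726 in LPS-stimulated WT and 3235 in LPS-stimulated 3xGrk-/- BMDCs. Laptm5 (274 RPKM) and Lamp1 (213 RPKM) followed in unstimulated WT, Lamp1 (320.4 RPKM) and Laptm5 (294 RPKM) in unstimulated 3xGrk-/-, Npc2 (244 RPKM) and Lamp1 (231 RPKM) in LPS-stimulated WT, and Lamp1 (531 RPKM) and Npc2 (504 RPKM) in LPS-stimulated 3xGrk-/- BMDCs. The lowest members were Sgsh in unstimulated WT (1.52 RPKM), Mcoln2 in LPS-stimulated WT (1.11 RPKM) and Galc in LPS-stimulated 3xGrk-/- BMDCs (1.21 RPKM).

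For 14 of the 42 genes some exon bases are shared with another annotated gene, and the strand setting of the counting is not given in the sources used here, so their counts carry that uncertainty. Dnase2a shares 1616 bases with Mast1, which had at most 0.324 CPM, Npc1 shares 511 with Rmc1 (37.8 to 64.7 CPM), Cln3 shares 442 with Apobr (80.9 to 136 CPM), Glb1 shares 165 with Tmppe on the same strand (55.5 to 102 CPM), Ppt1 shares 129 with Cap1 (587 to 864 CPM), and Idua shares 124 with Dgkq (27.5 to 44.5 CPM), whose level is close to that of Idua itself (29.58 to 43.99 CPM).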

How the data were processed

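Total RNA of BMDCs from 4 groups (WT and 3xGrk-/-, unstimulated and LPS-stimulated, 2 libraries each) was made into stranded mRNA libraries. The authors aligned reads to mm10 (GRCm38) with STAR within snakePipes, counted them per gene with featureCounts, and deposited raw counts in a table per stimulation, used here as deposited. The strand setting of the counting is not given in the sources used here. Gene IDs were matched to GENCODE M21 symbols (47224 of 47937). Depth was 4713305 to 6933358 counted reads per library, and the 42 genes had at least 19 counts in every library.

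Genotypes were compared within each table with edgeR 4.0.16 (R 4.3.3), using filterByExpr, TMM normalization and glmQLFTest, p-values adjusted by Benjamini-Hochberg over every gene in the fit and a threshold of 0.05. The genotype fits of the stimulations were separate, with fitted coefficients of variation of 0.0306 at rest and 0.0573 with LPS. The sizes of their p-values are therefore not comparable between stimulations. The interaction and the LPS responses came from a fit of all 8 libraries. SEs were the log2 fold change over the square root of F. RPKM used union exon lengths. The fits were checked on simulated data. Alternatives were DESeq2 1.42.0, RLE factors, library size only, no filter, at least 10 counts in every library, a replicate block, a coefficient of variation of 0.4, a log2 threshold of 1, a fit of all 8 libraries, and leaving out each library.

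The members and lists were chosen with earlier results of these data known. Full library values were given for members called with a log2 difference of at least 1, called in opposite directions, or called in neither stimulation. Of the other lysosomal genes, the 3 highest and 3 lowest called differences in each genotype comparison and the 4 MiT/TFE factors were named, with defining markers and the targeted kinases, except that 1 result chosen by this rule is not reported here.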

Additional observations from a re-analysis of the deposited data

Results flagged for a closer look

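For 31 of the 42 genes the difference between 3xGrk-/- and WT BMDCs itself differed between LPS-stimulated and unstimulated cells, by a test of the difference of differences over all 8 libraries (quasi-likelihood test of edgeR, p adjusted by Benjamini-Hochberg). The same test called 32.5% of 12541 genes tested. Values are log2, LPS-stimulated minus unstimulated. Among membrane glycoproteins and adaptors they were 0.61 for Lamp1, 1.27 for Lamp2 and 0.50 for Laptm5. Among transporters and channels they were 0.47 for Npc1, 1.25 for Cln3, 0.79 for Mcoln1, 3.30 for Mcoln2 and 0.56 for Ctns. The glycosidases of glycogen and glycoproteins gave 0.85 for Gaa, 0.77 for Man2b1, 0.23 for Fuca1 and 0.39 for Neu1. The glycosaminoglycan-degrading enzymes gave 0.76 for Galns, -0.59 for Ids, 0.70 for Naglu and 0.91 for Hgsnat. The sphingolipid hydrolases and activators gave 1.70 for Gla, -0.57 for Glb1, 0.88 for Hexa, -0.73 for Galc, 2.26 for Psap and 2.32 for Gm2a. The lipid and acyl hydrolases and the cholesterol carrier gave 1.15 for Lipa, -1.10 for Pla2g15, 0.53 for Ppt1, 0.94 for Npc2 and 0.92 for Plbd2. The values were 0.74 for Tpp1, 0.54 for Lgmn, 1.89 for Dnase2a and 0.66 for Gnptab.

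The difference for Ctns was not past the threshold without WT LPS replicate 1 (0.48), 3xGrk-/- unstimulated replicate 1 (0.44) or 3xGrk-/- LPS replicate 2 (0.54), and that for Neu1 without the same libraries (0.26, 0.32 and 0.36). The Fuca1 difference was lost without WT unstimulated replicate 1 (0.21), WT LPS replicate 1 (0.16), 3xGrk-/- unstimulated replicate 1 (0.23) or replicate 2 (0.23), and 3xGrk-/- LPS replicate 1 (0.25) or replicate 2 (0.21). With DESeq2 the differences of Ctns (adjusted p = 0.149), Fuca1 (0.207), Neu1 (0.113) and Galns (0.0611) were not past the threshold, and that of Fuca1 was also lost by total reads alone (0.23) and with no filter (0.24).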

How the results depend on the processing

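Over 5 comparisons of 42 genes, 2604 alternative log2 fold changes came from DESeq2, RLE factors, library size only, both filters, the block and leaving out each library, of which 2432 kept their direction and their side of the threshold, 106 fell below it, 35 rose past it and 31 changed direction. The coefficient of variation of 0.4, the log2 threshold of 1 and the fit of all 8 libraries are not in these counts. DESeq2 called 21 members without stimulation, all among the 33 of edgeR, 34 with LPS, 27 for the interaction, 24 for LPS in WT and 32 for LPS in 3xGrk-/-. The fit of all 8 libraries called 29 at rest and 38 with LPS, against 4809 and 6176 of 12541 genes tested. With a coefficient of variation of 0.4 for every gene, 0 members were called at rest (3.73% of all genes), 5 with LPS (6.61%), 1 for the interaction (Mcoln2, 0.574%), 4 for LPS in WT (8.85%) and 2 for LPS in 3xGrk-/- (6.78%). By an absolute log2 fold change of at least 1, the counts were 3 (12.03% of all genes), 22 (16.8%), 9 (10.96%), 11 (21.5%) and 5 (18.9%) in the same order. The shares of members at rest and for LPS in 3xGrk-/- were below those of all genes under both rules. Leaving out each library in turn gave 27 to 30 members at rest, 35 to 40 with LPS, 28 to 33 for the interaction, 27 to 30 for LPS in WT and 32 to 38 for LPS in 3xGrk-/-. Scaled by total reads alone, the summed level was 11710 CPM in unstimulated WT, 11574 CPM in unstimulated 3xGrk-/-, 6550 CPM in LPS-stimulated WT and 16354 CPM in LPS-stimulated 3xGrk-/- BMDCs. Without Psap the TMM-scaled sum was 5497, 6353, 4855 and 9294 CPM in the same order.

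The changes of direction were in members whose main value was not called, except Lamp1 and Lamp2 for LPS in WT. By total reads alone, the log2 values at rest were -0.043 for Fuca1 and -0.059 for Sgsh, those for LPS in WT -0.098 for Lamp1, -0.0073 for Lamp2, -0.17 for Neu1, -0.091 for Gla, -0.13 for Smpd1, -0.090 for Pla2g15 and -0.17 for Gnptab, and that for LPS in 3xGrk-/- -0.072 for Idua. With no filter Smpd1 came to 0.0099 at rest. When each library was left out, values at rest ran from -0.0020 to 0.18 for Scarb2, -0.012 to 0.086 for Fuca1, -0.11 to 0.13 for Sgsh and -0.14 to 0.095 for Smpd1, and interaction values from -0.31 to 0.095 for Manba and -0.18 to 0.040 for Asah1. For LPS in WT they ran from -0.084 to 0.034 for Npc1, -0.097 to 0.18 for Neu1, -0.19 to 0.064 for Galns, -0.18 to 0.41 for Gla, -0.037 to 0.19 for Smpd1 and -0.25 to 0.0049 for Plbd2. For LPS in 3xGrk-/- they ran from -0.20 to 0.11 for Aga and -0.12 to 0.062 for Hgsnat. The cause of these changes was not tested.

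Same-numbered libraries did not deviate together (correlations of replicate differences over genes between -0.013 and 0.026), so no pairing by number was detected. Whether they shared a culture or a preparation is not stated and was not tested. With the replicate number as a block, 33 members were called at rest, 37 with LPS, 30 for the interaction, 30 for LPS in WT and 37 for LPS in 3xGrk-/-. Over all genes, in the same order, these were 5292 of 12000, 5654 of 11830, and 3884, 7438 and 6793 of 12541. The block removed the interaction call of Fuca1 (0.23). The precision is limited by 2 libraries a group, so a group with a library left out rests on 1 library that is assumed to vary like the others.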
